A study of Caenorhabditis elegans with 2 samples.

Results

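On chromosome IV of Caenorhabditis elegans, piRNA gene neighbourhoods held few candidate regions of the protein F10E7.11 for their share of the sequence. In its 2 dense clusters of piRNA genes, regions were fewest close to the gene starts. On other chromosomes the difference was smaller. A neighbourhood region was a candidate region of the pooled ce11 list whose summit lay within 250 bp of a gene annotated as piRNA in Ensembl release 115 (assembly WBcel235, which is ce11). There were 267 such regions among 18286 in the list, called members below. Of these, 217 lay on chromosome IV, 195 of them in the dense clusters and 22 outside them, and 50 lay on other chromosomes. The list was deposited as peaks together with background, and 996 of all its regions, or 5.45%, had a q-value under 0.05. The densities below thus count mostly regions that did not reach it, and a candidate region is not taken as a bound site. The members were chosen by position alone, so their number and their signal values did not enter the rule. The choice was made with earlier results of these data known.

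The data were from chromatin immunoprecipitation followed by sequencing (ChIP-seq), in which DNA bound by a tagged protein is recovered with an antibody and sequenced. The material was whole worms of strain OP658, genotype unc-119(tm4063) III; wgIs658, which carry a transgene for F10E7.11 tagged at its C-terminus with GFP-FLAG. They were young adults, given as males and females pooled, taken 63 hours after starved L1 larvae had been synchronised. The samples form 1 group of 2 biological replicates, precipitated with anti-GFP, with no second condition and no untagged or wild-type group among the samples. The label for the antibody names F10E7.11 itself, and anti-GFP is named only in the description. All worms share the unc-119 mutation and the same transgene. Chromatin of germ line and soma was mixed, so binding in few cells and weak binding in many cannot be told apart. The lists give no read depth, and with 1 group no test over samples could be made, so every comparison below is a description, with each replicate's own list beside the pooled list. Regions and genes are not replicates of the samples.

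In C. elegans, piRNAs are 21-base RNAs of the germ line that begin with U, and they guide the Argonaute PRG-1 to silence transposons and other foreign RNA. Most are transcribed by RNA polymerase II from their own very small genes, each with its own start site. Many of these genes carry a conserved upstream element, often called the Ruby motif, with a core that reads CTGTTTCA or close to it, and they lie in clusters on chromosome IV in AT-rich sequence. A second kind arises at promoters of other genes, lacks the motif and lies throughout the genome.

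The annotation held 15363 piRNA genes, each 21 bp long, and 14714 of them, or 95.8%, lay on chromosome IV. The first base was T in 96.2% of the genes. The exact letters CTGTTTCA stood in the 100 bases upstream of 5209 genes, or 33.9%, and the first base of the motif stood most often 46 bases before the gene, in 1739 of them. With this exact core, genes with a variant of the motif count as lacking it. The dense clusters were defined from 100 kb bins with at least 50 piRNA genes. Cluster 1 ran from 4.8 to 6.6 Mb of chromosome IV with 2658 genes, and cluster 2 from 13.6 to 17.3 Mb with 11510. The motif stood before 35.3% of genes in the clusters, 29.9% elsewhere on chromosome IV and 6.93% on other chromosomes.

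The sequences below show the arrangement at the 3 cluster members of highest pooled signal value whose nearest piRNA gene has the motif. Each is printed 5′ to 3′ on the strand of the gene, with 100 upstream bases followed by the gene, from RefSeq's WBcel235 assembly. The capitals mark the motif on the strand of the gene and, at the right end, the 21 bases of the piRNA. The sequence of 21ur-12750 also holds TGAAACAG, the motif on the other strand, which is left in lower case. The 3 sequences lie at chrIV:14658508-14658628 (minus strand), chrIV:14261272-14261392 (minus strand) and chrIV:14953797-14953917 (plus strand).

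21ur-5343: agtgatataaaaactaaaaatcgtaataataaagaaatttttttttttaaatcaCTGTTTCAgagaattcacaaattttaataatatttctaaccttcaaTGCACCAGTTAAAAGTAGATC

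21ur-15088: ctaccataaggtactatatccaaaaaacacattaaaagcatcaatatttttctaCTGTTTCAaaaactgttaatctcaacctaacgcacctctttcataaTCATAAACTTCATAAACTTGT

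21ur-12750: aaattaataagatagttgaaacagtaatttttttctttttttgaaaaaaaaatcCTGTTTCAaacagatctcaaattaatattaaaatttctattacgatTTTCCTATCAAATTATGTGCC

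The summits of these 3 members did not fall on the printed sequence. It lay downstream of the 5′ end of the gene, by 240 bp at 21ur-5343, 259 bp at 21ur-15088 and 22 bp at 21ur-12750. At 21ur-5343 the signal value was 184 in the pooled list, 136 in replicate 1 and 48.2 in replicate 2. At 21ur-15088 the values were 125, 83.7 and 43.0, and at 21ur-12750 they were 118, 80.8 and 38.6. Signal values are those of the authors' peak caller and have a scale of their own in each list, so they are compared only within a list.

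Chromosome IV held fewer regions near piRNA genes than its sequence there would give at the density of the rest of the chromosome. Windows within 250 bp of a piRNA gene made up 19.3% of the sequence of chromosome IV but held 217 of its 2830 regions, or 7.67% (exact Clopper-Pearson 95% interval 6.71 to 8.71, which covers the number of regions only). This was 64.4 regions per Mb inside the windows and 185 per Mb in the remaining sequence, with 2613 regions, a ratio of 0.348. In replicate 1 the densities were 74.2 and 185 per Mb, a ratio of 0.401. In replicate 2 they were 103 and 251 per Mb, a ratio of 0.411. The density inside the windows was the lower in both replicates, and the replicate ratios differed by far less than their distance from 1.

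The same held inside the dense clusters, where windows and other sequence lie side by side. There the windows took 56.8% of the sequence and held 195 of 668 regions, or 29.2% (exact interval 25.8 to 32.8). The pooled density was 62.4 per Mb in the windows and 199 per Mb between them, a ratio of 0.314. It was 71.1 and 196 in replicate 1 (ratio 0.363) and 101 and 268 in replicate 2 (ratio 0.375). Away from piRNA genes the rest of chromosome IV had 182 per Mb in the pooled list, 183 in replicate 1 and 247 in replicate 2, so cluster sequence between the windows was no poorer in regions than that. Cluster 1 had a ratio of 0.373 and cluster 2 of 0.291 in the pooled list. In the replicates those ratios were 0.373 and 0.365 in replicate 1 and 0.370 and 0.385 in replicate 2, so the order of the clusters was not the same in the lists.

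**Figure D1:**
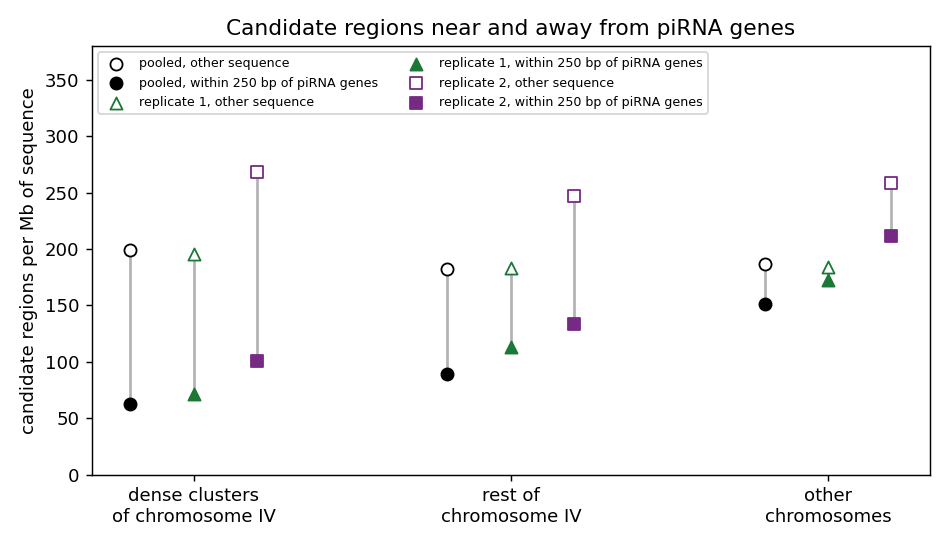
Candidate regions per Mb of sequence (vertical axis) within 250 bp of piRNA genes (filled) and in other sequence (open), in the dense clusters, the rest of chromosome IV and the other chromosomes, for the pooled list and each replicate list. Grey lines join the values of a list. In the clusters the filled points lie between 62.4 and 101 and the open points between 196 and 268.

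Away from the clusters the difference was smaller. In the rest of chromosome IV the windows held 22 regions in 0.247 Mb, or 89.1 per Mb against 182, a ratio of 0.489. The ratio was 0.620 in replicate 1, with 28 regions, and 0.541 in replicate 2, with 33. On the other chromosomes the windows held 50 regions in 0.331 Mb, or 151 per Mb against 187, a ratio of 0.809. It was 0.935 in replicate 1 and 0.819 in replicate 2. By chromosome the pooled ratio was 1.24 on I, 1.36 on II, 1.06 on III, 0.456 on V and 0.476 on X, from 12, 14, 9, 8 and 7 regions. In replicate 2 the ratio on III was 0.450 from 5 regions, so counts this small give no direction for a chromosome.

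Inside the clusters the density of summits was lowest in the 100 bp on either side of the start of a piRNA gene. From 100 bp upstream to the 5′ end there were 30 pooled summits in 0.925 Mb, or 32.4 per Mb, which is 0.267 of the mean of the clusters. Replicate 1 stood at 0.311 of its mean there and replicate 2 at 0.375. The upstream motif lies in this stretch. In the first 100 bp downstream the pooled density was 39.8 per Mb, 0.327 of the mean, with 0.478 in replicate 1 and 0.447 in replicate 2.

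Farther away the density was higher on both sides, though not at every step. From 100 to 250 bp the pooled density was 80.5 per Mb upstream and 117 per Mb downstream. From 250 to 500 bp it was 128 and 159 per Mb. Downstream it was lower again from 500 to 1000 bp, at 110 per Mb, and the replicates had the same dip. Beyond 1500 bp it reached 275 per Mb upstream and 254 downstream, or 2.26 and 2.09 times the mean of the clusters. Of the 195 cluster members, 77 had their summit upstream of the nearest piRNA gene, 115 downstream and 3 inside the gene. The G+C content of the sequence was also lowest next to the 5′ end, at 26.3% in the 100 bp upstream and 29.8% in the 100 bp downstream, and was 37.2% and 37.5% beyond 1500 bp. Density and G+C content did not change together at every step, and some steps rest on few summits. The downstream dip rests on 27 pooled summits. There G+C content rose from 34.9% between 250 and 500 bp to 36.1% between 500 and 1000 bp. Upstream it was 37.3% from 1500 to 1000 bp and 37.2% beyond, with pooled densities of 205 and 275 per Mb. These densities came from 22 and 125 summits. What part base composition has in this profile was not tested.

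**Figure D2:**
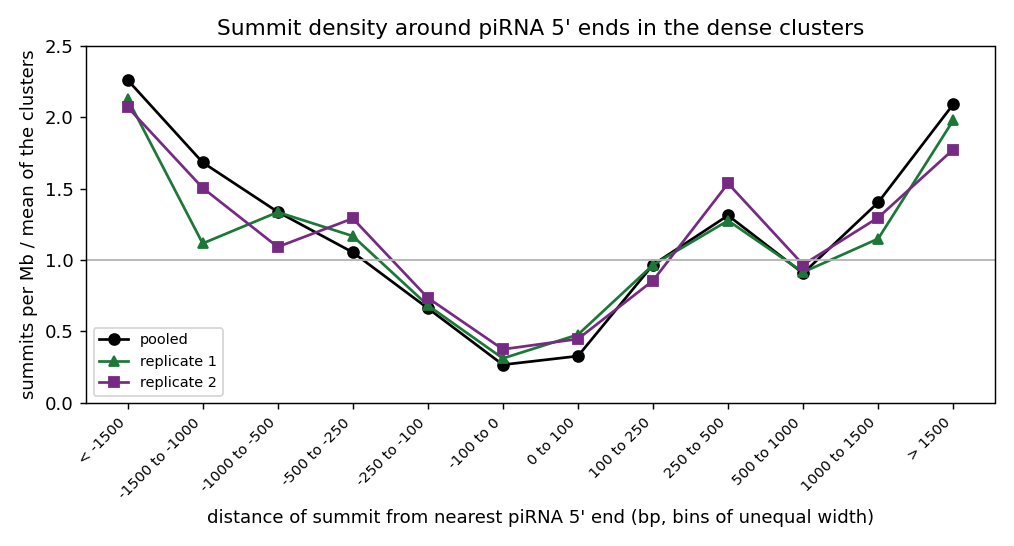
Density of summits in the dense clusters by distance from the nearest piRNA 5′ end (horizontal axis, bp, negative is upstream, bins of unequal width), relative to the mean of the clusters for the same list (vertical axis). The grey line is the mean. All 3 lists are lowest from 100 bp upstream to the 5′ end, at 0.267, 0.311 and 0.375.

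Sequence near piRNA genes was poor in G and C, and regions of this list were more frequent in sequence rich in them. In the clusters the windows had a G+C content of 29.9% and the sequence between them 36.4%. The 100 bp at the summits of cluster members had 38.9% ± 8.56 (SD, 195 regions), and those of the other cluster regions 42.6% ± 9.18 (SD, 473 regions). Summits of members were thus richer in G+C than the sequence around piRNA genes in general. Soft-masked bases, which the RefSeq sequence marks as repetitive or of low complexity, made up 44.9% of the windows and 37.5% of the other cluster sequence.

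Within a range of G+C content the windows still had the lower density in the clusters in each of the 3 lists, and the ratio was nearest to 1 in the range richest in G+C. In 100 bp bins with under 25% G+C, the pooled density was 16.4 per Mb in windows and 80.1 outside, a ratio of 0.205 from 12 and 17 regions. In that range the ratio was 0.426 in replicate 1, from 22 and 15 regions, and 0.661 in replicate 2, from 25 and 11. The lists thus differed there. The pooled ratio was 0.314 from 25 to 30%, 0.514 from 30 to 35% and 0.454 from 35 to 40%, so it did not rise at every step. At 45% or more the pooled ratio was 0.821, with 350 and 426 regions per Mb. It was 0.985 there in replicate 1 and 0.834 in replicate 2. Over all ranges the clusters had 192 pooled regions in windows where the density outside, range by range, would give 380, a ratio of 0.505. The same ratio was 0.573 in replicate 1 and 0.589 in replicate 2. How far base composition, repeats and the mapping of reads enter the remaining difference was not tested.

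**Figure D3:**
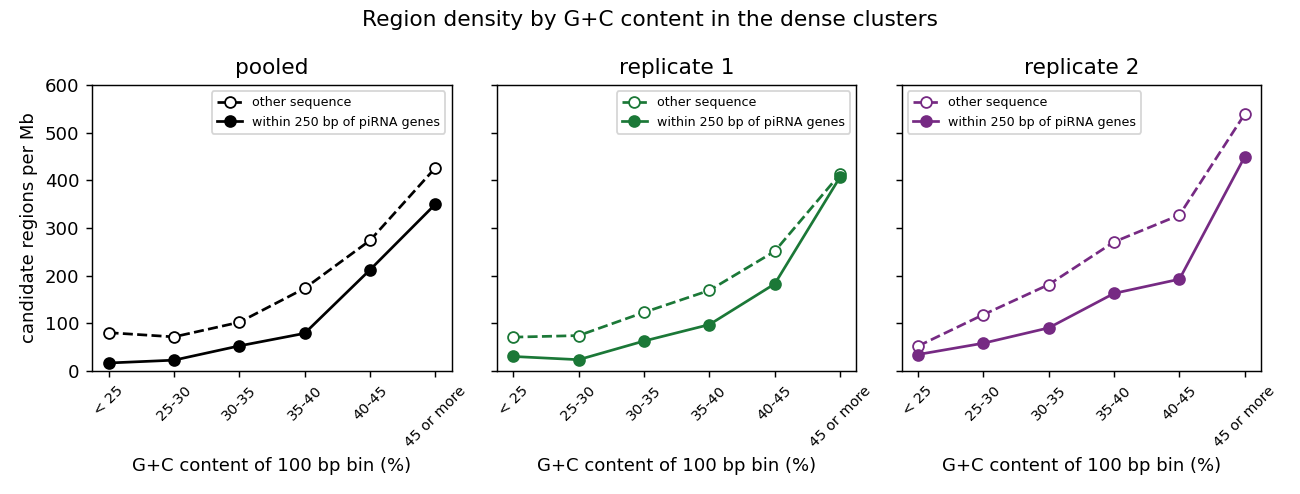
Candidate regions per Mb in the dense clusters (vertical axis) by G+C content of 100 bp bins (horizontal axis, percent), within 250 bp of piRNA genes (filled, solid line) and in other cluster sequence (open, dashed line), 1 panel per list. In the pooled list the solid line runs from 16.4 to 350 and the dashed line from 80.1 to 426.

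The kind of sequence made a smaller difference. Of the sequence in the cluster windows, 53.8% was intergenic, 28.0% intronic, 8.69% coding and 8.27% protein-coding promoter, where a promoter covers 500 bp before and 100 bp after a transcript's 5′ end. Outside the windows the shares were 35.9%, 24.5%, 21.5% and 14.9%. The pooled density ratio in the clusters was 0.337 in intergenic sequence, 0.360 in introns, 0.612 in coding exons and 0.293 in promoters. Taken over all classes it was 0.371. In replicate 1 the ratio was 0.433 in intergenic sequence and 0.541 in coding exons, and in replicate 2 it was 0.386 and 0.718, so coding exons had the higher ratio of the 2 in each list.

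Bins of chromosome IV with 100 or more piRNA genes held fewer regions on average than bins with none. Regions inside and outside the windows were counted together. Windows took 44.6% of cluster 1 and 62.7% of cluster 2, so these counts are not separate from the window densities above. The 34 bins of 100 kb with no piRNA gene held 18.5 ± 5.46 pooled regions (SD over bins). The 17 bins with 100 to 199 genes held 14.4 ± 6.12, and the 19 bins with 300 to 486 genes held 9.63 ± 4.79. In replicate 1 the same 3 kinds of bin held 17.5, 14.2 and 10.4 regions, and in replicate 2 they held 25.1, 20.8 and 13.9. The 73 bins with 1 to 9 genes held 18.2 pooled regions, with 18.7 in replicate 1 and 24.8 in replicate 2. Single bins overlapped widely, from 8 to 31 pooled regions with no piRNA gene and from 2 to 22 with 300 or more. Across 174 bins the Spearman correlation of gene number and pooled regions was -0.44, a description only, since neighbouring bins share base composition and domain.

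**Figure D4:**
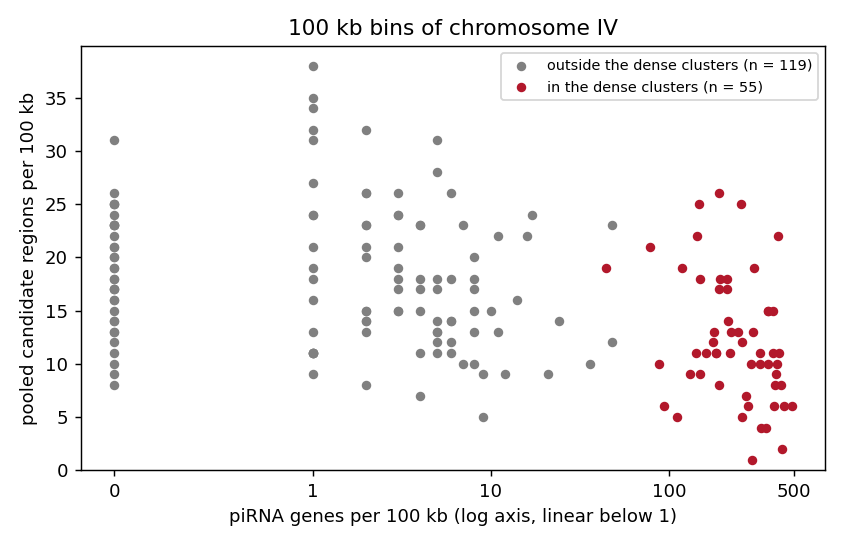
Pooled candidate regions (vertical axis) against piRNA genes (horizontal axis, log scale, linear below 1) in 100 kb bins of chromosome IV, 1 point per bin, in the dense clusters (red) or outside them (grey). Bins without a piRNA gene hold 8 to 31 regions and those with 300 or more hold 2 to 22.

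The signal values of the members on chromosome IV were slightly lower than those of its remaining regions. In the pooled list they ran from 56.4 to 184 with a median of 68.7, and those of the remaining regions from 56.4 to 342 with a median of 72.8, a ratio of medians of 0.943. The ratio was 0.922 in replicate 1, with medians of 49.4 and 53.6, and 0.916 in replicate 2, with 21.9 and 23.9. The ranges overlapped almost fully at the low end and parted at the high end. When the chromosome IV regions of the pooled list were divided by signal into 4 sets of near equal size, members were 9.60% of the lowest set and 3.82% of the highest. In replicate 1 they were 12.4% and 4.33%, and in replicate 2 they were 11.1% and 5.97%.

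Members in the clusters had a pooled median of 68.6, against 75.1 for the other regions of the clusters. Members at piRNA genes outside the clusters had a pooled median of 76.0 over 72 regions, so the cluster members stood at 0.902 of them. This ratio was 0.946 in replicate 1 and 0.939 in replicate 2. Members elsewhere on chromosome IV had a pooled median of 73.7 beside 72.4 for their neighbours, and those on other chromosomes 78.9 beside 71.8. In replicate 1 these medians were 50.5 beside 53.4 and 52.4 beside 52.9, and in replicate 2 they were 23.2 beside 23.7 and 22.7 beside 23.7. Outside the clusters the pooled list and the replicate lists thus gave opposite directions for the signal of members against other regions.

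**Figure D5:**
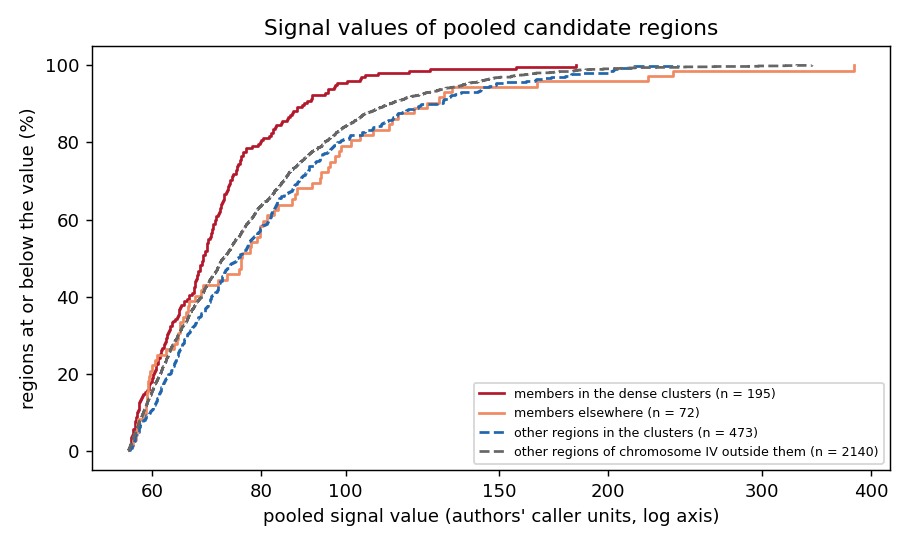
Cumulative share of pooled candidate regions (vertical axis, percent) at or below a signal value (horizontal axis, log scale, units of the authors' peak caller), for members in the dense clusters, members elsewhere, other regions in the clusters and other regions of chromosome IV outside them. The line of the 195 cluster members lies to the left of the others above its median of 68.6.

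Members at the edge of the distance rule had much the same values as regions just past it. In the pooled list, 46 regions had their summit 201 to 250 bp from a piRNA gene, with a median signal value of 71.0, and 40 lay 251 to 300 bp away, with a median of 69.3.

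Few members were strong. In the IDR list, the authors' shorter list of pooled peaks past a threshold on the irreproducible discovery rate, 3.14% of all pooled regions were found, 575 of 18286. Of the 267 members 6 were in it, or 2.25%. On chromosome IV 2 of 217 members were, or 0.922% (exact interval 0.112 to 3.29), beside 83 of 2613 remaining regions, or 3.18% (2.54 to 3.92). These intervals overlap. On other chromosomes 4 of 50 members were in the list, or 8% (2.22 to 19.2), and elsewhere on chromosome IV 0 of 22, which allows a share of up to 15.4% by the same exact interval. A q-value under 0.05 was held by the same number of members in each of these sets. On chromosome IV this was 2 members, or 0.922%, beside 159 remaining regions, or 6.08%. The exact intervals were 0.112 to 3.29% for the members and 5.20 to 7.07% for the remaining regions. They do not overlap but cover the number of regions only. Over the whole pooled list the share was 5.45%. In the replicate lists 3 of 250 chromosome IV members of replicate 1 passed, or 1.20%, against 6.06% of all its regions, and 3 of 347 of replicate 2, or 0.865%, against 3.90%.

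The 6 members in the IDR list lay at 5 piRNA genes. Each had its summit in a protein-coding promoter or within 250 bp of a tRNA or snRNA gene. The share of all IDR peaks with such a neighbour is not given here, so this does not set the members apart. The strongest member, on chromosome I from 7656609 to 7656815, had a signal value of 382 pooled, 238 in replicate 1 and 148 in replicate 2. Its summit was upstream of 21ur-14981 and 371 bp upstream of the 5′ end of ego-1, whose product copies RNA into RNA in the germ line. On chromosome I from 12652059 to 12652494, a region with values of 222, 153 and 71.4 had its summit 108 bp upstream of 21ur-12279, at the 5′ end of atp-1, a subunit of the mitochondrial ATP synthase, and 190 bp upstream of mcrs-1.

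On chromosome II, overlapping regions with pooled values of 237 and 166 had summits 22 and 221 bp upstream of 21ur-14704. They fall in the same region of each replicate list, with values of 188 and 49.3, so they are not separate in the replicates. Both summits lay within 34 bp of sup-39, annotated as an snRNA gene, in an intron of C15F1.5. None of these genes on chromosomes I and II had the upstream motif.

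On chromosome IV the IDR member of cluster 2, from 14658070 to 14658505, was the one near 21ur-5343 shown above. Its summit lay 20 bp upstream of the 5′ end of anoh-2, a gene of the anoctamin family, whose promoter holds it. That of cluster 1, from 5966983 to 5967418, had signal values of 157, 119 and 38.1 and a summit 92 bp past the end of 21ur-5229, a piRNA gene without the motif. The summit was inside a tRNA gene, WBGene00022903, at 5967160 to 5967232. The 300 bases around it, at chrIV:5967051-5967350 (plus strand), show how the genes lie. The capitals mark the 21 bases of the piRNA, at bases 39 to 59 of the stretch, and the tRNA gene takes bases 110 to 182.

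21ur-5229: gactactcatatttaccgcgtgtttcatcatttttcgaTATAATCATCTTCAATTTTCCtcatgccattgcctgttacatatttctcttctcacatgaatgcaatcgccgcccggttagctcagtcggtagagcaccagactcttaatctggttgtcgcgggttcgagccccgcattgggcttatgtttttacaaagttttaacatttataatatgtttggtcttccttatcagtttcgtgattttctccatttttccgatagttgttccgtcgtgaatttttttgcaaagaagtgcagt

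Of all 267 members, 47 had their summit in a protein-coding promoter and 19 within 250 bp of a tRNA, snoRNA, snRNA, miRNA or rRNA gene, 64 with either. On chromosome IV a promoter held the summit of 14.3% of members and 23.0% of remaining regions. The IDR list held 3.14% of all pooled regions whatever their neighbours, but none of the 203 members with neither kind of neighbour. Among those that also had no other annotated noncoding RNA gene within 250 bp, 152 in the clusters and 41 outside them, the strongest in the clusters was the region near 21ur-15088 shown above, with a q-value of 0.0716. The next, on chromosome IV from 15696857 to 15697292 in an intron of Y105C5A.15, lay 109 bp from 21ur-8767, with signal values of 109, 56.2 and 42.8. The region from 14617163 to 14617598 lay 5 bp from 21ur-14927 in an intron of dmd-6, a gene of the DM-domain family, with values of 105, 78.3 and 23.7.

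The other 7 of the 10 strongest had pooled values from 104 near 21ur-7159 to 91.6 near 21ur-6607, the others being near 21ur-6997, 21ur-9441, 21ur-13524, 21ur-2814 and 21ur-3187. Some had very different places in the 2 replicate lists. By signal the region near 21ur-6997 was number 1593 in replicate 1 but 18742 in replicate 2. That near 21ur-3187, in exon sequence of fkh-7 outside its coding sequence, was number 1263 in replicate 1 and had no region in replicate 2. None of these 10 had a q-value under 0.05, and the lowest was that of 21ur-15088.

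Outside the clusters the strongest without such a neighbour were near 21ur-14659, in an intron of gstk-2 on chromosome IV, and near 21ur-15588, in intergenic sequence of chromosome IV. Their signal values were 132, 83.1 and 50.9, and 130, 77.2 and 54.0, in the pooled list and in replicates 1 and 2. They were followed by a region near 21ur-14449, in exon sequence of zyg-11 outside its coding sequence (pooled value 128). Next were regions near 21ur-15005 in an intron of daf-12, the nuclear hormone receptor (124), and near 21ur-12977 in a coding exon of fcp-1 (115). None of these 5 genes had the upstream motif, and the lowest q-value was 0.0514.

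The members were less often found in both replicates than the remaining regions of chromosome IV. Of the 217 on chromosome IV, 157 had their summit in a region of replicate 1, or 72.4%, 136 in one of replicate 2, or 62.7%, and 85 in both, or 39.2%. Of the 2613 remaining regions 1337 were in both, or 51.2%. In the clusters the shares in both were 39.5% for members and 55.2% for other regions. Where both replicates had a region, their signal values had a Spearman correlation of 0.21 over 77 cluster members and 0.49 over 261 other cluster regions, given as a description of regions that share the same libraries. The cluster members also had the lower signal values given above, whose part in this was not tested.

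Counted by gene, 402 of 15363 piRNA genes had a pooled summit within 250 bp, or 2.62%. In the clusters 331 of 14168 did, or 2.34%, with 2.82% in replicate 1 and 4.11% in replicate 2. Elsewhere on chromosome IV the shares were 4.21%, 5.31% and 5.49% of 546 genes, and on other chromosomes 7.40%, 8.01% and 10.5% of 649. The clusters had the lowest share and the other chromosomes the highest in each of the 3 lists. Neighbouring genes can share a region: 180 members lay within 250 bp of 1 piRNA gene, and the highest number of piRNA genes so close to a member was 6. At 7 members the summit fell inside a piRNA gene, with pooled signal values between 57.6 near 21ur-8492 and 75.8 near 21ur-13800.

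Genes with the exact motif had a region more often than those without it in cluster 2, and less often in cluster 1 and outside the clusters, in each of the 3 lists. Over both clusters 2.98% of 5001 genes with it and 1.99% of 9167 without it had a pooled region. In replicate 1 the shares were 3.56% and 2.42%, and in replicate 2 they were 4.28% and 4.03%. In cluster 2 they were 3.17% and 1.68% in the pooled list, 3.70% and 2.09% in replicate 1 and 4.26% and 3.91% in replicate 2. In cluster 1 they were 2.27% and 3.44%, 3.02% and 4.0%, and 4.34% and 4.57%. The gap was smallest in replicate 2 in both clusters. Outside the clusters 2.40% of 208 genes with the motif and 6.69% of 987 without it had a pooled region. The shares were 3.37% and 7.50% in replicate 1 and 3.85% and 9.12% in replicate 2. These groups mix places: 163 of the 208 but only 383 of the 987 lay on chromosome IV. There the pooled shares were 3.07%, from 5 genes, and 4.70%, from 18. On other chromosomes they were 0% of 45 genes and 7.95% of 604.

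The motif, read as CTGTTTCA or TGAAACAG on the other strand within 250 bp of the summit, stood at 117 of 267 members, or 43.8%, with 44.0% in replicate 1 and 40.5% in replicate 2. In the clusters it stood at 55.4% of members, beside 54.3% of 6243 stretches of 501 bp that tile the clusters with their midpoint near a piRNA gene. Members in the clusters thus had the motif about as often as these stretches. The stretches were not matched to the members for distance within the 250 bp. Among the other regions of the clusters 5.29% had it, beside 9.65% of 4735 stretches with their midpoint away from piRNA genes, and over all of chromosome IV 13.6% of 34917 stretches had it. A match says only that these letters lie there.

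Promoters of protein-coding genes of the piRNA pathway were read beside those of all protein-coding genes. The list holds 25 names, of which 22 matched a protein-coding gene in the annotation and tofu-3, prg-2 and pics-1 were not matched. In the pooled list 1 of 22, or 4.55%, had a summit in the promoter, beside 17.0% of all 19973 protein-coding genes. This was henn-1, the methyltransferase that modifies the ends of piRNAs, with signal values of 98.1 pooled, 59.8 in replicate 1 and 38.7 in replicate 2, and a pooled rank of 3021. In replicate 1 the count was 2 of 22, or 9.09%, beside 17.0% of all protein-coding genes, with prde-1, a factor needed for piRNA transcription, at a signal value of 54.0. In replicate 2 it was 3 of 22, or 13.6%, beside 19.9% of all protein-coding genes, with signal values of 27.0 for the forkhead gene fkh-5 and 19.9 for attf-6. With 22 genes these counts are too small to set the list apart from other genes. None of the 22 had an IDR peak at the promoter, and 0.986% of all protein-coding genes had one, a share at which a list of this size may well hold none. Genes without a summit at the promoter in any of these lists included prg-1, the piRNA Argonaute, snpc-4 and tofu-4 and tofu-5, which act in piRNA transcription, parn-1, which trims piRNAs, and hrde-1, a nuclear Argonaute.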

How the data were processed

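The deposited narrowPeak lists in ce11 were used, 1 per replicate, 1 for both pooled, labelled as peaks and background, and the IDR list. The authors' file list derives each replicate's list from its alignments and 1 further file, and the labels name a possible control, which was not analysed here. Which aligner, caller, versions and IDR cutoff applied is not given in the sources used here. Values in the deposited lists are a signal value per region, with a q-value deposited as its −log10 and a summit offset (other) in bp. Lists in ce10 were not used. Read depth is unknown.

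Summits were compared with Ensembl release 115 genes and RefSeq WBcel235 sequence, whose chromosome lengths hold every region and gene. Dense 100 kb bins (at least 50 piRNA genes) were merged over gaps of up to 300 kb, and the 2 blocks with most genes were kept. Density is summits per Mb of sequence. Density and distance code was tested on simulated data. Intervals are exact Clopper-Pearson 95% intervals.

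Regions named are members in the IDR list, then the 10 strongest in the clusters and 5 strongest elsewhere with no protein-coding promoter at the summit and no noncoding RNA gene (piRNA genes and pseudogenes not counted) within 250 bp, and members with a summit inside a piRNA gene, these last chosen after their values were seen. Members and lists were chosen with earlier results of these data known. Scripts ran under Python 3.11.15 with pandas 2.3.3, numpy 2.4.6, matplotlib 3.10.9 for figures and scipy 1.17.1 for intervals and rank correlations.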

Additional observations from a re-analysis of the deposited data

How the results depend on the processing

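Limits are the 2 samples of 1 group, the unknown read depth, a pooled list that draws on both replicates, and a control that was not analysed. No paired analysis was possible because there was 1 group of samples. Of 55 alternative values 13 moved by less than the SD of the replicates or stayed within the interval, 41 moved further and 1 reversed.

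The density ratio of chromosome IV (0.348) was 0.236 with a distance of 100 bp, 0.420 with 500 bp, 0.390 with motif-bearing piRNA genes alone and 0.0527 among regions with a q-value under 0.05, from 2 members. It was 0.401 to 0.411 in the replicate lists alone. In alternatives chosen after seeing the data it was 0.375 without soft-masked sequence, 0.520 within G+C ranges and 0.404 within sequence classes. In the clusters (0.314) the same alternatives gave 0.228, 0.350, 0.469, 0.0411, 0.363 to 0.375, 0.331, 0.505 and 0.371, and 0.338 without promoters and small RNA genes. The ratio stayed below 1 in each of these. With motif-bearing genes alone, sequence and regions near the other piRNA genes count with the rest. That setting thus does not compare genes with and without the motif. The same holds for the signal ratio of chromosome IV below.

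The signal ratio of chromosome IV (0.943) was 0.923 with 100 bp, 0.953 with motif-bearing genes, 0.957 without promoters and small RNA genes and 0.916 to 0.922 in the replicates. It reversed to 1.09 with a q-value under 0.05, where 2 members remain. The signal ratio of clusters to elsewhere (0.902) was 0.975, 0.930, 0.934 and 0.916 with 100 bp, 500 bp, motif-bearing genes and without promoters and small RNA genes, 0.742 with a q-value under 0.05 and 0.939 to 0.946 in the replicates.

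The share of chromosome IV members in the IDR list (0.922%) was 0% without promoters and small RNA genes. The share of cluster piRNA genes with a region (2.34%) was 0.713% with 100 bp, 5.67% with 500 bp, 0.0141% with a q-value under 0.05 and 2.82 to 4.11% in the replicates. The share of members with the motif (43.8%) was 30.5% with 500 bp and 50.7% without promoters and small RNA genes. It was 0% among the 6 members with a q-value under 0.05 and 40.5 to 44.0% in the replicates. With motif-bearing genes it was 85.1%, a value set largely by the choice of genes for the same motif.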
